A study of Drosophila melanogaster with 24 samples.

Results

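Adult male heads of Drosophila melanogaster were compared with whole male pupae. The comparison took 8 of the study's 24 array samples, 4 per group, chosen by their labels, and covered all 22575 spots of the array. The heads were cut from adult males aged 24 to 48 h. The male pupae had been picked as white prepupae 0 to 1 h after forming the puparium and were then kept at 25 °C for 12 h. All groups came from the single isogenic line WI89, and mRNA was labelled without an amplification step, per the design text of the series. In each group 2 samples carried the dye Cy3 and 2 carried Cy5. The other groups of 4 are abdomens of adult males of the same age as the heads, female pupae staged like the male pupae, mixed-sex pupae made by pooling male and female pupal RNA, and embryos from a 24 h egg collection. Stage and body part differ together between heads and male pupae, so adult against pupa and head against whole animal cannot be told apart in this comparison alone. Nothing in the labels tells if replicates are separate collections of animals, so the p-values cover sample-to-sample spread alone, and part of it may be technical.

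During the fly's metamorphosis, the steroid hormone ecdysone drives the breakdown of most larval tissues while the adult body grows from imaginal discs and nests of adult precursor cells. The pupae of this study stand early in that change, near head eversion, when the adult head is pushed out of the thorax. The adult head holds the brain, the compound eyes, the antennae and mouthparts, muscle and head fat body. The adult male abdomen holds the testes, the accessory glands, the gut and most of the fat body, and testes are already present in male prepupae. A probe here measures the summed RNA of a whole body part or animal, so fewer cells of a type and less RNA per cell cannot be told apart.

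The tables used here name no gene for any spot. Each result is therefore given for a probe, called by its number in spot order on an array of 105 rows and 215 columns, and the cell types of the head could not be checked against marker genes. Levels are log2 signal intensities after background correction, with an offset of 50 units, and quantile normalisation across the 24 samples, adjusted for dye. A change is the level in heads minus the level in male pupae, and the offset understates it for dim probes. A probe was called when limma's Benjamini-Hochberg adjusted p over all 22575 probes was under 0.05. The fit had a mean for each of the 6 groups, a dye term, and the array as a random block, since 2 samples of opposite dye shared each of the 12 arrays. Which samples shared an array was inferred from identical patterns of marked spots, since no label gives it. The number of arrays, 4 samples a side, limits the precision.

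Heads formed a tight group and male pupae a looser one. Over the 4284 brightest probes, with each probe's mean taken off, every head sample was nearest to another head sample, with r between 0.864 and 0.899. The mean r of a head sample was 0.808 to 0.883 with the other heads and -0.548 to -0.456 with male pupae. Male pupae replicate 1 had a mean r of 0.203 with the other male pupae, against 0.447 to 0.548 for replicates 2, 3 and 4, and its nearest sample was mixed-sex pupae replicate 4 (r 0.871). Replicates 3 and 4 were also nearest to a mixed-sex sample, replicate 1 (r 0.777 and 0.851), which shared its array with male pupae replicate 4, and replicate 2 was nearest to male pupae replicate 4 (r 0.697). These correlations are across probes, which are not independent replicates.

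Array brightness went with the groups. The median net signal was 6.26 and 5.19 scanner units in the Cy5 heads (replicates 1 and 3) and 60.8 and 67.7 in the Cy3 heads (replicates 2 and 4). It was 25.8 and 61.7 units in the Cy5 male pupae (replicates 2 and 4) and 76.2 and 119 in the Cy3 male pupae (replicates 1 and 3). All 4 head samples lay on the 8 dim arrays, while 3 of the 4 male pupal samples lay on the 4 bright ones, replicate 1 being the exception. The share of spots above background was 74.0% and 80.1% in the Cy5 heads, 100% in the Cy3 heads, and at least 99.9956% in each male pupal sample. On the dim arrays alone, which hold 4 heads and 1 male pupal sample, assumed to vary like the rest, 1083 probes were called higher in heads and 1506 lower.

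No array held heads together with male pupae. Heads replicates 1 and 2 shared their arrays with abdomens, replicate 3 with female pupae and replicate 4 with embryos. Male pupae shared theirs with abdomens (replicate 1), embryos (replicate 2), female pupae (replicate 3) and mixed-sex pupae (replicate 4). Over the 798 probes that were higher in abdomens than in female pupae by at least 1 log2 unit, the heads on arrays with abdomens lay above the other heads by a median of 0.07 and 0.08. The head sample with female pupae lay at -0.07 and the one with embryos at -0.11. Over the 338 probes higher in female pupae, the head sample with female pupae lay at 0.20, against -0.15, -0.09 and -0.03 in replicates 1, 2 and 4. Male pupae replicate 1, on an array with abdomens, lay at 0.20 over the abdomen-high probes and the other male pupae at -0.13 to -0.02. It also lay at 0.16 over the female-pupa-high probes, above male pupae replicate 3, which shared its array with female pupae and lay at 0.10. With that exception, a sample tended to sit towards the sample it shared an array with, by under 1 log2 unit in these medians and by more at some single probes. Its part in the results was not tested, and levels by array partner are given beside some of the probes they touch.

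**Figure D1:**
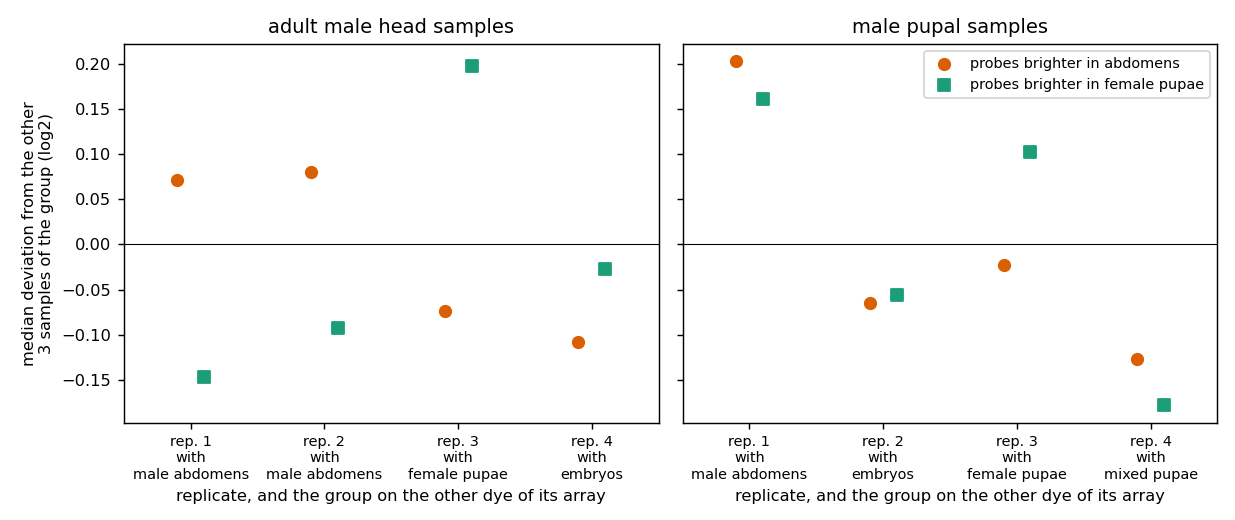
Median deviation (log2) of each head sample (left) and male pupal sample (right) from the other 3 samples of its group, over 798 probes brighter in abdomens (circles) and 338 brighter in female pupae (squares); the axis names the group on the same array. The head sample that shared its array with female pupae is the highest head sample over the female-pupa probes, at 0.20.

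Heads and male pupae differed at 5000 of the 22575 probes (22.1%), in nearly equal numbers each way. 2413 probes were higher in heads (10.7%) and 2587 were lower in heads (11.5%). At an unadjusted p under 0.05 the count was 6879. Most called changes were small, with a median of 0.48 among probes higher in heads and -0.49 among those lower in heads. The median change of all probes was 0.00, and the middle 50% of probes lay between -0.12 and 0.11.

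A called change of at least 1 log2 unit was found at 496 probes higher in heads (2.20%) and 407 lower in heads (1.80%), 903 in all. Changes of at least 2 units were called at 144 probes higher in heads and 109 lower in heads, and changes of at least 3 units at 44 and 32. The probes higher in heads by at least 1 unit had a median level of 8.28 in heads and 6.51 in male pupae. Those lower in heads had a median level of 6.45 in heads and 8.09 in male pupae. With an offset of 10 units in place of 50, the counts of at least 1 unit were 943 higher in heads and 1036 lower in heads. For comparison, the median level of all probes was 6.21 in heads and 6.21 in male pupae. The dim side of each list thus lay above the middle of the array, and the bright side much further above it.

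The groups did not overlap at many more probes than those with large changes. Among the 21549 probes usable in all 8 samples, the 4 head and 4 male pupal values did not overlap at 4903 (22.8%), of which 2410 (11.2%) were higher in heads and 2493 (11.6%) lower in heads. Of called probes usable in all 8 samples, 1906 of 2319 higher in heads and 2051 of 2511 lower in heads did not overlap. With a change of at least 1 unit this held at 470 of 470 higher in heads and at 389 of 389 lower in heads. The called probes were chosen on these same 8 samples, so their lack of overlap is largely fixed by that choice.

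**Figure D2:**
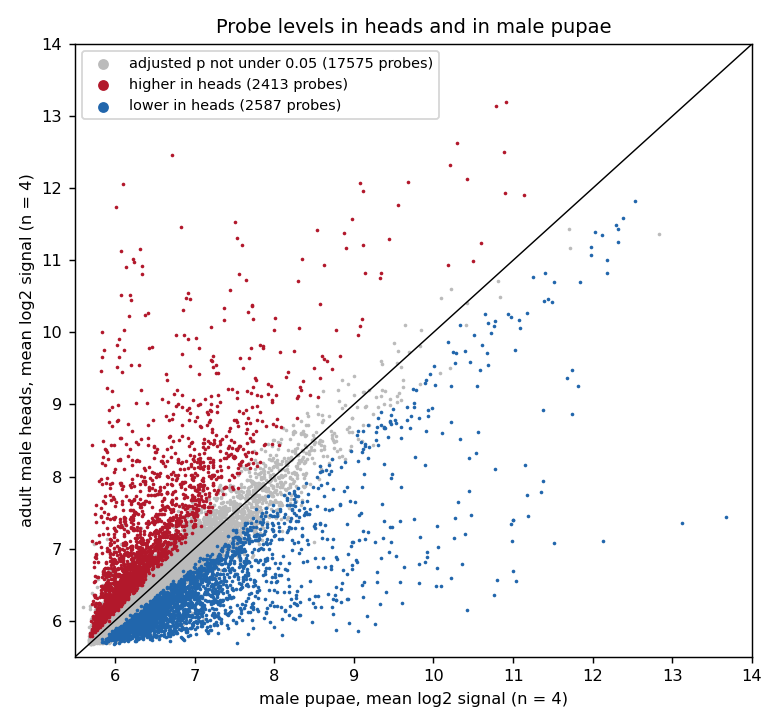
Mean log2 signal of each probe in adult male heads (vertical axis, n = 4) against male pupae (horizontal axis, n = 4). Red points are the 2413 probes called higher in heads, blue points the 2587 called lower in heads and grey points the rest; the line marks equal levels, and the largest changes lie near the dim end of one axis.

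Calls became more frequent and larger with brightness. In 5 classes of 4515 probes by mean signal over the 8 samples, from dimmest to brightest, 6.29%, 12.5%, 22.6%, 28.8% and 40.6% of probes were called. The median size of a called change was 0.19, 0.27, 0.35, 0.49 and 0.87 log2 units in the same order. The brightest class held 427 of the 496 probes higher in heads by at least 1 unit and 328 of the 407 lower in heads. The classes were cut on the same 8 samples, and a probe with a large change has a raised mean signal, so part of this order of sizes is fixed by the sorting. The offset of 50 units pulls the changes of dim probes towards 0, so these shares describe what the arrays could measure as well as what differed.

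The probes with the largest rise in heads were among the brightest of the array in heads. In male pupae their mean levels ran from 6.01 (probe 20039) to 6.83 (probe 18964), against a median of 6.21 over all probes. Probe 20039 (row 94, column 44) had levels of 11.65, 11.95, 11.87 and 11.48 in heads and 5.96, 6.03, 6.08 and 5.97 in male pupae, in replicate order. Before normalisation its net signal was 574, 3421, 916 and 4143 scanner units in heads and 59.3, 17.9, 104 and 48.8 units in male pupae. All 4 heads lay more than 5 log2 units above all 4 male pupae, and the male pupal values lay below the median level of the array. The fitted change was 5.25 (standard error 0.25; adjusted p = 5.29e-13, limma). The fit weights samples by the array they share, and the plain difference of means at this probe was 5.72, so fitted changes and level differences are close but not equal.

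The next probes in size had the same shape. Probe 11882 (row 56, column 57) had levels of 11.61, 12.53, 11.73 and 12.36 in heads and 5.90, 6.0, 6.0 and 6.52 in male pupae, with a change of 5.23 (standard error 0.38; adjusted p = 1.55e-09, limma). Probe 22433 (row 105, column 73) had 10.65, 11.18, 10.91 and 11.31 in heads and 6.34, 6.26, 6.14 and 6.15 in male pupae. Its change of 4.63 had the smallest error of the 8 probes (standard error 0.13; adjusted p = 5.22e-16, limma). The lowest head sample stood more than 4 units above the highest male pupal sample at both probes. Probe 9796 had 10.76, 11.39, 10.41 and 11.98 in heads and 6.04, 6.27, 6.07 and 5.91 in male pupae, a change of 4.60 (standard error 0.29; adjusted p = 3.54e-11, limma). Probe 5520 had 10.39, 11.15, 10.65 and 11.73 in heads and 6.30, 6.44, 6.03 and 6.18 in male pupae, a change of 4.53 (standard error 0.19; adjusted p = 8.12e-14, limma). At probes 11882, 22433, 9796 and 5520 alike, the Cy3 heads, replicates 2 and 4, stood above the Cy5 heads after the dye adjustment.

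At 6 of the 8 probes with the largest rise, abdomens were about as dim as pupae in the samples that did not share an array with heads. At probes 22433 and 9796 such abdomens lay slightly above every such pupal sample. At probe 20039 the 16 other samples without heads on their array lay between 5.88 and 6.12, and the 4 samples on arrays with heads between 6.87 and 7.26. The ranges were 5.90 to 6.52 (14 usable samples) and 7.26 to 8.03 (4 samples) at probe 11882, and 5.86 to 6.42 and 6.78 to 7.93 at probe 9796. At probe 19299, with heads at 11.16 ± 0.20 and male pupae at 6.32 ± 0.08 (SD, n = 4 each), they were 6.21 to 6.48 and 7.28 to 7.70. The samples that shared an array with heads thus stood above the others at these 4 probes, and heads stood more than 2 units above every one of them. At probe 5520 the 2 ranges overlapped, at 5.96 to 6.46 and 6.41 to 6.88. At probe 22433 they were apart by little, with 6.48 to 6.71 in samples on arrays with heads and 5.95 to 6.42 in the others. Heads exceeded abdomens by 4.99 at probe 20039 (limma adjusted p = 8.59e-14) and by 4.42 at probe 22433 (limma adjusted p = 6.10e-17).

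Probes 18964 and 6078 were also bright in abdomens, at a lower level than in heads. Probe 18964 had 11.18, 11.32, 11.97 and 11.35 in heads and 6.70, 6.71, 6.95 and 6.95 in male pupae, with a change of 4.46 (standard error 0.19; adjusted p = 7.98e-14, limma). Its level in abdomens was 8.70 ± 0.34 (SD, n = 4), 2.53 below heads (limma adjusted p = 4.04e-11). Probe 6078 had 10.83, 11.05, 10.56 and 10.81 in heads and 6.41, 6.40, 6.09 and 6.44 in male pupae, with a change of 4.30 (standard error 0.17; adjusted p = 6.08e-14, limma). Abdomens were at 8.05 ± 0.09 (SD, n = 4), 2.72 below heads (limma adjusted p = 4.31e-12). Both probes thus ran from pupae through abdomens to heads, with the 3 groups apart by more than their spread.

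The probes with the largest fall in heads were bright in pupae of either sex, or bright in male pupae and abdomens. Probe 19839 (row 93, column 59) had 6.26, 6.39, 7.34 and 6.21 in heads and 10.93, 10.76, 11.17 and 11.30 in male pupae. Its net signal was 6.15, 72.0, 24.0 and 72.1 scanner units in heads and 4188, 1335, 4483 and 2109 units in male pupae. Heads lay near their median level over all probes, 6.21, except replicate 3. That sample, which shared its array with female pupae, was about 1 log2 unit above the other heads. The change was -4.39 (standard error 0.19; adjusted p = 1.08e-13, limma). Female pupae were at 11.11 ± 0.15 and mixed-sex pupae at 11.17 ± 0.34 (SD, n = 4 each), while abdomens were at 7.20 ± 0.20 and embryos at 6.28 ± 0.20.

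Probes 8495, 8010, 1553, 18585 and 13203 were also bright in pupae of either sex and dim in abdomens. Probe 8495 had 6.18, 5.87, 6.66 and 5.92 in heads and 10.57, 10.17, 10.71 and 10.22 in male pupae, a change of -4.06 (standard error 0.19; adjusted p = 2.77e-13, limma). Probe 1553 had 6.91, 6.94, 7.83 and 6.77 in heads and 10.98, 10.96, 11.13 and 10.85 in male pupae, a change of -3.81 (standard error 0.16; adjusted p = 8.12e-14, limma). At both, heads replicate 3 was the highest head sample and still more than 3 units below every male pupal sample. Probe 8010 had 6.01, 6.36, 9.43 and 6.60 in heads and 11.92, 12.07, 12.27 and 12.26 in male pupae. Its change of -4.14 had the largest error of the named probes (standard error 0.56; adjusted p = 5.04e-06, limma), and the plain difference of means was -5.03. The 6 head, abdomen and embryo samples that shared an array with pupae lay between 8.05 and 9.43 there, and the 6 that did not lay between 6.01 and 6.60. The level at probe 8010 thus moved with array sharing, whose part in the result was not tested, and every male pupal sample stood at least 2 units above all of these samples. Probe 18585 showed the same order at a smaller size, with 7.29 to 8.31 in samples on arrays with pupae and 6.97 to 7.27 in the others. So did probe 1553, with 7.27 to 7.83 and 6.77 to 7.16. At probe 13203, heads were at 6.69 ± 1.01 and male pupae at 10.99 ± 0.28 (SD, n = 4 each), and embryos, at 10.01 ± 1.07 in 3 usable samples, were bright too. Heads replicate 3, on the array with female pupae, was at 8.16 there and the other heads at 5.87 to 6.41. The embryos on arrays with male pupae, heads and female pupae were at 11.22, 9.57 and 9.22.

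Probes 323 and 17376 had their highest level in abdomens and were brighter in male than in female pupae. Probe 323 (row 2, column 108) had 7.85, 8.09, 6.92 and 6.93 in heads and 11.24, 11.22, 11.16 and 11.15 in male pupae, a change of -3.67 (standard error 0.25; adjusted p = 1.72e-10, limma). Probe 17376 (row 81, column 176) had 8.27, 8.27, 7.09 and 7.33 in heads and 11.14, 11.18, 11.14 and 11.24 in male pupae, a change of -3.61 (standard error 0.25; adjusted p = 1.49e-10, limma). Male pupae varied little at both, and the heads on arrays with abdomens, replicates 1 and 2, were the higher ones. Abdomens were at 13.03 ± 0.33 at probe 323 and at 13.14 ± 0.42 at probe 17376, mixed-sex pupae at 10.37 ± 0.24 and 10.45 ± 0.32, and female pupae at 7.82 ± 0.56 and 7.87 ± 0.53 (SD, n = 4 each). Male pupae exceeded female pupae by 3.26 at probe 323 (limma adjusted p = 2.09e-09) and by 3.29 at probe 17376 (limma adjusted p = 1.35e-09). The pooled pupae fell between the sexes at both probes.

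**Figure D3:**
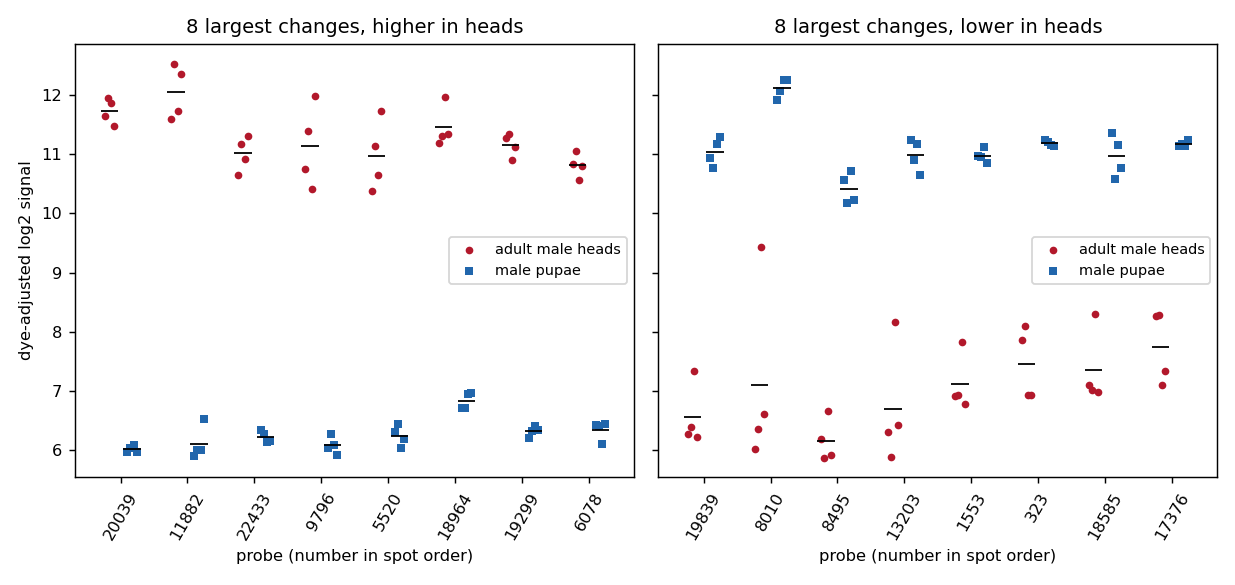
Dye-adjusted log2 signal of each head and male pupal sample (4 points per group) at the 8 probes with the largest rise in heads (left) and the 8 with the largest fall (right), among probes usable in all 8 samples; lines mark group means. The 16 probes were chosen among those where heads and male pupae do not overlap. Heads replicate 3 at 9.43 is the one head value that stands far from its group at probe 8010.

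The brightest probes with a change of at least 1 unit were bright in both groups, so their changes were smaller. Probe 5284 had 12.76, 13.64, 12.76 and 13.64 in heads and between 10.55 and 11.37 in male pupae, and its change was 2.14 (standard error 0.29; adjusted p = 5.56e-06, limma). Probe 22251 had 13.13, 13.26, 13.13 and 13.03 in heads and 11.40, 10.51, 10.56 and 10.66 in male pupae, a change of 2.16 (standard error 0.23; adjusted p = 2.09e-07, limma). Male pupae replicate 1, the sample on a dim array with abdomens, was the nearest to heads at both. Abdomens were at 12.04 ± 0.13 and 12.02 ± 0.17 (SD, n = 4 each) at these probes, between heads and male pupae. Probe 19162 changed by 2.06 (heads 12.62 ± 0.23, male pupae 10.29 ± 0.17, SD, n = 4 each). Probe 16573 changed by 1.41, with 12.50 ± 0.12 in heads and 10.89 ± 0.21 in male pupae (SD, n = 4 each), and was dimmest in embryos, at 8.42 ± 0.54. Equal values in heads of the same dye, at replicates 2 and 4 of probe 5284 and replicates 1 and 3 of probe 22251, can occur because quantile normalisation gives probes of the same rank the same value.

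Among the brightest probes lower in heads, probe 20044 had the largest change. It had 8.89, 9.33, 9.83 and 8.95 in heads and 11.80, 11.70, 11.80 and 11.97 in male pupae, a change of -2.64 (standard error 0.16; adjusted p = 1.73e-11, limma). Female pupae, at 11.95 ± 0.37, and mixed-sex pupae, at 11.83 ± 0.11, were as bright as male pupae, and abdomens were dimmer than heads, at 8.14 ± 0.12 (SD, n = 4 each). Probe 8276 was also bright in pupae, with heads at 9.47 ± 0.49 and male pupae at 11.74 ± 0.22 (SD, n = 4 each) and a change of -2.08, and its abdomens, at 9.52 ± 0.30, were close to heads. Probes 158 and 6715 were bright in every group and lower in heads by about 1 unit. Probe 158 was at 10.82 ± 0.19 in heads and 12.18 ± 0.05 in male pupae, and probe 6715 at 10.70 ± 0.22 in heads and 11.84 ± 0.15 in male pupae (SD, n = 4 each). Heads were lower than abdomens there too, by 0.61 at each probe (limma adjusted p = 0.0014 and 1.43e-05).

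A further 6 called probes changed by at least 4 units with a marked spot in 1 or more of the 8 samples, and were therefore outside the rule for named probes. Probe 6238 had the largest change of all called probes, -5.94 (standard error 0.42; adjusted p = 1.40e-08, limma), with a mean level of 7.45 in 3 usable heads and 13.68 in 2 usable male pupae. The 2 male pupal values were equal (SD 0), which can occur under quantile normalisation and is no measure of their spread. Probe 5712 was at 12.47 in 3 usable heads and 6.71 in 4 male pupae, a change of 5.15. Probe 10230 was at 7.08 in 3 usable heads and 11.51 in 4 male pupae, with abdomens at 13.02 and female pupae at 8.34, the order seen at probes 323 and 17376. Probes 10859, 2774 and 11949 changed by -4.97, -4.30 and -4.14, with an SD among usable heads of 1.77 (n = 4), 0.50 (n = 3) and 0.12 (n = 3).

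The levels of the other groups, whose samples enter the fit through shared arrays and the common spread, show where else these probes were bright. For each of the 903 probes with a change of at least 1 unit, the level in each other group was placed on the heads' or the male pupae's side of their midpoint. This is a description, with no test. The probe sets below were sorted on the levels given for them, so part of the gaps between groups is fixed by the sorting. Of the 496 probes higher in heads, female pupae were on the heads' side at 2 (0.403%), mixed-sex pupae at 1 (0.202%), embryos at 92 (18.5%) and abdomens at 225 (45.4%). Heads had the highest level of the 6 groups at 437 of the 496 probes, abdomens at 42 and embryos at 17. The female pupae, which share no RNA with the male pupae, were thus dim at nearly the same probes as male pupae.

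Sorted by these sides, 256 of the 496 probes (51.6%) had all 4 other groups on the male pupae's side. This set is called bright in heads alone. Abdomens could still stand above pupae in it, as at probes 18964 and 6078, with abdomens at 8.70 and 8.05. The 256 probes held most of the large changes. Their median change was 1.62, and 98 of them changed by at least 2 units and 31 by at least 3. The median over these probes averaged 8.32 ± 0.12 in heads and 6.38 ± 0.03 in male pupae, and between 6.38 and 6.60 in the other 4 groups (SD, n = 4 each). In single samples without heads on their array it ran from 6.33 to 6.56. In the 4 samples that shared an array with heads it was 6.63 and 6.69 in abdomens, 6.69 in female pupae and 6.71 in embryos. The heads, at 8.16 to 8.43, lay more than 1 unit above all of them.

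A group of 147 probes (29.6%) was bright in heads and abdomens and dim in pupae and embryos, as a pair of adult body parts. The median level was 8.13 ± 0.17 in heads, 7.91 ± 0.16 in abdomens and 6.49 ± 0.10 in male pupae (SD, n = 4 each). The abdomens on arrays with pupae, at 7.73 and 8.11, were as bright as those on arrays with heads, at 7.86 and 7.94. As an example taken after values were seen, probe 19660 had 9.71, 9.90, 9.91 and 9.76 in heads and 6.01, 5.90, 6.06 and 6.12 in male pupae, a change of 3.74 (standard error 0.13; adjusted p = 7.50e-15, limma). Abdomens lay between, at 8.0 ± 0.27 (SD, n = 4). Probe 3659 had 11.73, 11.43, 10.90 and 11.17 in heads and 7.76, 7.65, 7.21 and 7.50 in male pupae, with abdomens close to heads at 10.72 ± 0.42 (SD, n = 4). Its change was 3.74 (standard error 0.23; adjusted p = 4.05e-11, limma), and heads exceeded abdomens by 0.73 (limma adjusted p = 0.0115).

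Another 77 probes (15.5%) were bright in heads, abdomens and embryos and lower in pupae of every kind. Their median level was 8.59 ± 0.12 in heads, 8.35 ± 0.15 in abdomens, 8.46 ± 0.12 in embryos and 7.07 ± 0.17 in male pupae (SD, n = 4 each), so male pupae were above the middle of the array here. The embryo sample on an array with heads, at 8.30, was the lowest of the 4 embryo samples. Probe 10136, an example chosen after values were seen, had 11.25, 11.36, 11.12 and 11.10 in heads and 7.72, 7.96, 7.23 and 7.48 in male pupae, a change of 3.57 (standard error 0.20; adjusted p = 7.53e-12, limma). Abdomens were at 10.88 ± 0.10 and embryos at 10.91 ± 0.45 (SD, n = 4 each), and the difference of heads from abdomens, 0.43, did not pass the test (limma adjusted p = 0.0834). A further 14 probes (2.82%) were bright in heads and embryos. Probe 10286, for example, was at 11.01 in heads, 8.35 in male pupae, 9.31 in abdomens and 10.02 in embryos.

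The 407 probes lower in heads split by sex and body part. Female pupae were on the heads' side at 177 (43.5%), abdomens at 202 (49.6%), embryos at 334 (82.1%) and mixed-sex pupae at 4 (0.983%). The highest level of the 6 groups was in abdomens at 169 probes, in female pupae at 153, in male pupae at 42, in embryos at 24 and in mixed-sex pupae at 19. Male pupae were therefore seldom the brightest group at the probes where they exceeded heads.

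The largest set, 166 probes (40.8%), was bright in male pupae and abdomens and dim in heads, female pupae and embryos. Its median level was 6.22 ± 0.15 in heads, 7.73 ± 0.14 in male pupae, 8.47 ± 0.06 in abdomens, 7.35 ± 0.19 in mixed-sex pupae, 6.20 ± 0.16 in female pupae and 6.14 ± 0.04 in embryos (SD, n = 4 each). Heads, female pupae and embryos lay close to or below the median level of all probes in heads, 6.21, the pooled pupae lay below male pupae, and abdomens above every other group. The abdomen samples were at 8.38 to 8.51 whatever shared their array, and the heads on arrays with abdomens, at 6.31 and 6.39, were slightly above the other heads, at 6.13 and 6.06. Probe 20466, chosen after values were seen, had 7.81, 7.92, 6.46 and 6.42 in heads and 10.24, 10.16, 10.17 and 10.44 in male pupae, a change of -3.17 (standard error 0.26; adjusted p = 2.26e-09, limma). Abdomens were at 11.98 ± 0.25 and female pupae at 6.86 ± 0.52 (SD, n = 4 each). As at probes 323 and 17376, the heads on arrays with abdomens were the higher heads.

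A set of 146 probes (35.9%) was bright in pupae of both sexes and dim in heads, abdomens and embryos, and it held 20 of the 32 falls of at least 3 units. Its median change was -1.82, and its median level was 6.59 ± 0.23 in heads, 8.76 ± 0.10 in male pupae, 8.92 ± 0.10 in female pupae, 6.61 ± 0.15 in abdomens and 6.68 ± 0.11 in embryos (SD, n = 4 each). The head sample on an array with female pupae was at 6.93 and the other heads at 6.44 to 6.51. Another 47 probes (11.5%) were bright in pupae and embryos, at a median level of 6.70 ± 0.13 in heads, 8.14 ± 0.09 in male pupae and 8.12 ± 0.17 in embryos (SD, n = 4 each). The embryo sample that shared no array with pupae was the lowest of the 4, at 7.93 against 8.03 to 8.31. At probe 14443, an example chosen after values were seen, heads had 7.10, 6.46, 7.27 and 6.68 and male pupae 9.41, 9.30, 9.21 and 9.43, with embryos at 9.19 ± 0.91 (SD, n = 4).

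At 22 probes (5.41%) every other group lay on the male pupae's side, so heads alone were on the low side. The median level of these probes was 7.66 ± 0.19 in heads and 8.95 ± 0.34 in male pupae, and between 8.94 and 9.30 in the other 4 groups (SD, n = 4 each). Heads were thus lower there than the other groups but above their median level over all probes, 6.21. Probe 2637, chosen after values were seen, had 8.34, 7.80, 8.34 and 7.28 in heads and 11.04, 11.99, 10.81 and 11.66 in male pupae, a change of -2.99 (standard error 0.39; adjusted p = 3.33e-06, limma). Its level was 10.61 ± 0.50 in abdomens and 12.12 ± 0.65 in female pupae (SD, n = 4 each). Heads were also lower than abdomens at this probe, by 2.39 (limma adjusted p = 1.21e-05). The heads thus differed there from the other adult body part as well as from pupae. At a further 15 probes (3.69%) embryos alone lay on the heads' side, and the few probes left fell into smaller sets.

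**Figure D4:**
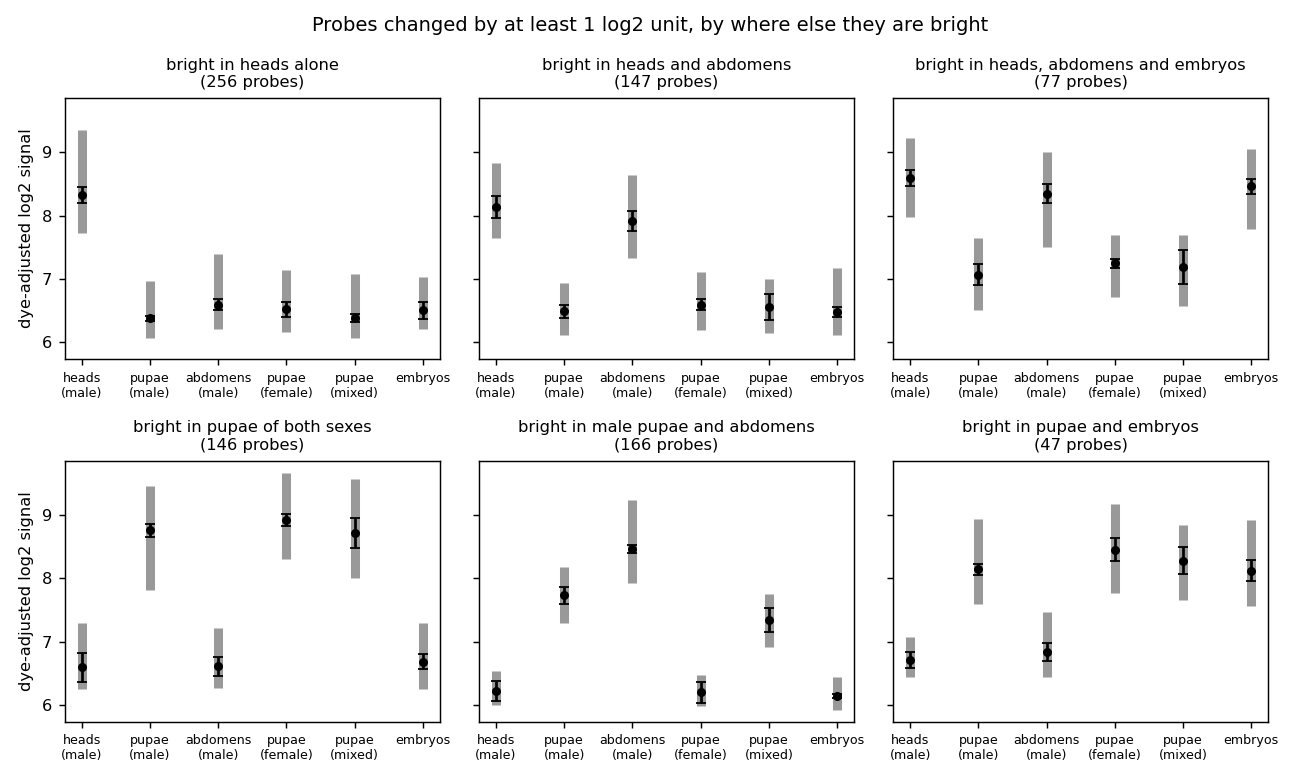
Median dye-adjusted log2 signal over the probes of each set in the 6 groups (points, mean of 4 sample medians; thin bars, SD; grey bars, the middle 50% of probes), for probes with a change of at least 1 log2 unit, sorted by the groups in which they were bright. The set of 166 probes is bright in male pupae (7.73) and abdomens (8.47) and at 6.20 in female pupae, while the set of 146 probes is bright in male (8.76) and female pupae (8.92) and at 6.61 in abdomens.

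Abdomens against female pupae give a second contrast of an adult body part with pupae that shares no sample with heads against male pupae, although some of its samples lie on the same arrays. That contrast called 6005 probes (26.6%), of which 3219 were higher in abdomens (14.3%) and 2786 lower in abdomens (12.3%). Of the 2413 probes higher in heads, 747 were also higher in abdomens, which is 31.0% of those higher in heads and 23.2% of those higher in abdomens. 175 of the 2413 were lower in abdomens, 7.25% of those higher in heads and 6.28% of those lower in abdomens. The adult body parts thus moved the same way at more of these probes than the opposite way, and the difference between the 2 shares was not tested.

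The probes lower in heads did not follow abdomens in this way. Of the 2587 probes lower in heads, 920 were lower in abdomens too (35.6% of those lower in heads and 33.0% of those lower in abdomens). 1160 of the 2587 were higher in abdomens than in female pupae (44.8% of those lower in heads and 36.0% of those higher in abdomens). Among the 407 with a change of at least 1 unit, abdomens minus female pupae had a median of -0.67 and quartiles of -1.82 and 1.97. It was called lower in abdomens at 215 of them and higher in abdomens at 176. At the 496 probes higher in heads by at least 1 unit the median was 0.47, with 263 called higher in abdomens and 31 lower, against a median of -0.05 over all probes. The quartiles of the 407 probes thus lay far to either side of 0. In this second contrast sex differs together with stage and body part, and the 3 cannot be told apart.

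The direction of large changes came out alike in the samples of each dye, which share no sample, while the number of calls differed. The Cy3 samples alone gave 3883 calls and the Cy5 samples alone 1809. The Cy5 heads lay on dim arrays and the Cy5 male pupae on bright ones, so group and array brightness cannot be told apart within Cy5. In the 2 Cy3 heads against the 2 Cy3 male pupae, 571 probes were called higher in heads by at least 1 unit and had a value in Cy5. All 571 (100%) were higher in heads in the Cy5 samples too, where their median change was 1.39, against 1.51 in Cy3. Of 482 probes called lower in heads in Cy3, 481 (99.8%) were lower in Cy5, with a median of -1.19 in Cy5 and -1.39 in Cy3. Starting from the Cy5 samples, 494 of 496 probes higher in heads (99.6%) and 360 of 368 lower in heads (97.8%) had the same direction in Cy3. Over all probes each of these directions held at 49.5% to 50.5% of probes. Direction was therefore shared between the dyes at nearly every probe with a large change. The median changes of the probes chosen in Cy5 were 1.52 in Cy5 and 1.62 in Cy3 for those higher in heads, and -1.44 in Cy5 and -1.61 in Cy3 for those lower in heads. Median changes were thus smaller in Cy5 in both directions and by either choice.

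**Figure D5:**
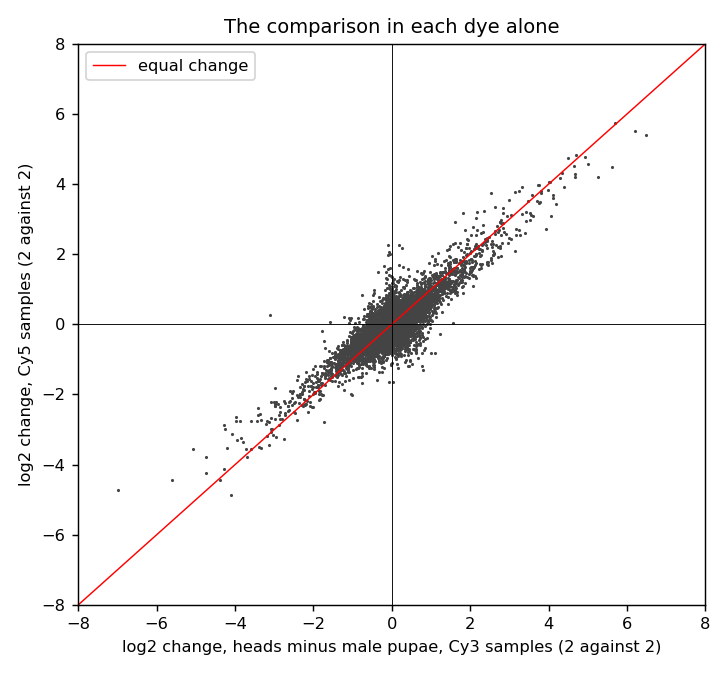
Log2 change, heads minus male pupae, of every probe in the Cy5 samples (vertical axis, 2 against 2) against the Cy3 samples (horizontal axis, 2 against 2); the line marks equal changes. Of the probes called by at least 1 unit in Cy3, 571 of 571 higher in heads and 481 of 482 lower in heads have the same direction in Cy5.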

How the data were processed

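The deposited scanner tables, 1 per sample, hold the mean signal intensity and the median local background intensity of each spot, per the file headers, neither corrected nor normalised. The authors also deposited a table of natural log values, used as an alternative, which equalled ln(mean signal - mean background) with differences under 1e-07. Scanner, software and labelling steps are otherwise not given in the sources used here. Identical patterns of marked spots paired the 24 samples into 12 arrays of opposite dyes. Marked spots were left out, 1026 probes being marked in any of the 8 head and male pupal samples. In R 4.3.3 with limma 3.58.1, signals were corrected with normexp (offset 50), log2 transformed and quantile normalised. One model over all 24 samples, with group means, a dye term, the array as a random block and an intensity trend, was tested with Benjamini-Hochberg adjustment. A spot was above background at 2 SD of its sample's spot backgrounds. Named probes were, in each direction, the 8 largest changes and the 4 brightest changes of at least 1 log2 unit, usable in all 8 samples and not overlapping. Probes named as examples of a set or as marked were chosen after their values were seen. The members and lists were chosen with earlier results of these data known. The scripts were tested on simulated data. Same-numbered samples were not paired: head and male pupal deviations correlated at -0.010, 0.092, -0.036 and 0.115 over replicates 1 to 4. The gene lists planned for named spots were not used, since the scanner tables hold 0 gene identifiers. Alternatives covered background, normalisation, array, dye, brightness, filters, threshold and left-out samples.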

Additional observations from a re-analysis of the deposited data

Results flagged for a closer look

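Among the 24 named probes, 10 of 48 groups of 4 had a sample whose gap to its nearest neighbour took up more of the group's range than Dixon's critical value for 4 samples, where chance gives about 5%. Heads replicate 3, on the array with female pupae, accounted for 4 of the 10. It was above the other heads at probe 19839 (7.34, against 6.21 to 6.39), probe 1553 (7.83, against 6.77 to 6.94) and probe 18585 (8.31, against 6.97 to 7.10), each brighter in pupae, and below them at probe 158 (10.54, against 10.89 to 10.95). Heads replicate 2 was above the other heads at probe 19162 (12.97, against 12.50 to 12.53) and probe 6715 (11.03, against 10.56 to 10.62). Male pupae replicate 1 was above the other male pupae at probe 22251 (11.40, against 10.51 to 10.66). Male pupae replicate 2 was the high sample at probe 16573 (11.20, against 10.77 to 10.82) and replicate 4 at probe 11882 (6.52, against 5.90 to 6.0). Male pupae replicate 3 was the low sample at probe 6078 (6.09, against 6.40 to 6.44).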

How the results depend on the processing

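Under 27 alternatives, 8 of which left out a sample, all 24 named probes kept their direction and stayed past the threshold, in 648 of 648 values; the least certain were probe 5284 (largest limma adjusted p 0.048) and probe 16573 (0.0446). These probes were chosen on the same samples as large or bright called changes without overlap, so that outcome is largely fixed by the choice. Leaving out 1 sample gave 4295 to 4840 calls, 2128 to 2435 of them higher and 2158 to 2462 lower in heads, and 874 to 944 with a change of at least 1 unit. With the array as a fixed block there were 3676 calls (1631 higher, 2045 lower in heads), against 5000 in the fit as reported. Without an array block there were 4458 (2248 higher, 2210 lower). A fit to only the 8 head and male pupal samples gave 3847 (1803 higher, 2044 lower). Dim arrays alone, with 1 male pupal sample assumed to vary like the others, gave 2589 calls (1083 higher, 1506 lower), 1138 of them in the brightest class of probes, and Cy5 samples alone gave 1809 (977 higher, 832 lower), 961 of them in that class, against 1833 there in the fit as reported. Bright arrays alone could not be fitted, since no head sample lies on one. Among the brighter 50% of probes, the brightest class, a smaller one because fewer probes were divided, held 1177 calls.

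The offset sets how many changes reach 1 unit. An offset of 10 gave 1979 (943 higher, 1036 lower in heads), plain subtraction 1804 (881 higher, 923 lower) and the deposited natural log values 1869 (897 higher, 972 lower), since less is added to dim signals. The sets grew with them under an offset of 10, plain subtraction and the natural log values: bright in heads alone to 432, 413 and 417, higher in heads with abdomens on the heads' side to 453, 416 and 427, bright in male pupae and abdomens to 532, 469 and 497, and bright in pupae of both sexes, with embryos on either side, to 320, 305 and 305, against 193. On dim arrays alone the male pupae and abdomen set held 282.

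The share of calls higher in heads, 48.3% with a jackknife SE of 2.97 points, was 55.5% with scaling to the 75th percentile, 44.4% with the array as a fixed block, 44.0% with a term for bright arrays, 41.8% on dim arrays, 51.8% among probes above background in both groups, 43.4% in the brighter 50% of probes, 51.6% in Cy3 and 54.0% in Cy5. The side with more calls thus depends on these settings, and the cause was not tested. With the replicate number as a block, although the numbers do not pair the samples, 4803 probes were called (2335 higher, 2468 lower in heads). Dim probes limit what the arrays show: signal over background was lowest in the Cy5 heads.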
